A study of Mus musculus with 51 samples.

Results

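Potassium channels let potassium ions leave the cell and so set the resting potential, shape the action potential and time the interval to the next one. Each channel is an assembly of pore subunits, and the genes of these subunits were the subject here: 76 of the 24564 genes in the count table, taken by symbol (the voltage-gated Kcna, Kcnb, Kcnc, Kcnd, Kcnh and Kcnq families, the silent Kcnf, Kcng, Kcns and Kcnv families, the inward rectifiers Kcnj, the two-pore channels Kcnk, and the calcium- or sodium-activated Kcnma, Kcnn, Kcnt and Kcnu families, with Kcns3 left out). The rule read symbols and no measured value. By these names 30 genes were voltage-gated, 9 silent, 15 inward rectifiers, 14 two-pore and 8 calcium- or sodium-activated. In dopaminergic neurons such channels are known for pacemaking, in which Kv4 channels (Kcnd) and SK channels (Kcnn) slow the approach to the next spike, and for autoreceptor inhibition through G protein-gated GIRK channels (Kcnj3, Kcnj5, Kcnj6 and Kcnj9). Serotonergic neurons fire slowly as well and are inhibited by their own 5-HT1A receptors through GIRK channels. Silent subunits form no channel alone and join Kcnb subunits.

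RNA was measured by Smart-seq2, a full-length method for small amounts of RNA, in neurons sorted by fluorescence from the midbrain of adult mice. Dopaminergic (mDA) neurons came from DatCreEed animals and serotonergic (5HT) neurons from SertCreEed animals, where Cre is driven from the dopamine transporter or the serotonin transporter gene and Eed encodes a core subunit of Polycomb repressive complex 2 (PRC2), which methylates histone H3 to keep genes silent. The question was what changes when such neurons lack a working PRC2. The 8 groups were PRC2 mutant mDA at 4 months (10 libraries) and wt mDA at 4 months (9), PRC2 mutant mDA at 8 months (8) and wt mDA at 8 months (8), and 4 libraries each of PRC2 mutant 5HT and wt 5HT at 4 and at 8 months. Each of the 51 libraries was 1 animal. Total counts per library ran from 1644460 to 12250492, and levels are given as CPM (counts scaled by library total to a common depth), where a single count was worth 0.0816 to 0.608. Eed counts over the whole gene check no label, and "mutant" below means labelled mutant. The mDA libraries fell into 3 sequencing sets. At 4 months set1 held female mutants and male wt animals only, set3 male mutants and female wt animals only, and at 8 months set3 held wt animals only. Serotonergic markers (8 genes) summed to 13.3 to 104 CPM in mDA libraries and 1118 to 7566 CPM in 5HT libraries. Dopaminergic markers (8 genes, Ddc and Slc18a2 among them) summed to 3026 to 10227 CPM in mDA and 1511 to 4167 CPM in 5HT libraries. By edgeR 6 of these 8 were higher and 1 lower in wt mDA than in wt 5HT. The sum of this list is therefore not particular to mDA neurons. All 5HT libraries were of set1, so neuron type, mouse line and set cannot be fully told apart.

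The sequence that makes these genes one family is the selectivity filter, a short signature in the pore loop that strips water from potassium and lets it pass. Read in frame in the coding sequences of GENCODE M21 (GRCm38), the codons for threonine or serine, then valine, isoleucine or leucine, then glycine, then tyrosine, phenylalanine or leucine, then glycine stood at least once in all 76 genes. They stood at 2 places in 12 of the 14 two-pore genes, whose subunits carry a pair of pore loops. In Kcnk1 (from codon 225) and Kcnk7 (from codon 212) they stood at 1 place. A filter with other residues would be missed by this pattern, so 1 place does not mean 1 pore loop. The lines below show the 5 filter codons in capitals with 3 codons on either side, 5′ to 3′, for genes that the results turn on. The silent subunit Kcnf1 has a complete filter like its conducting relatives Kcnd3 and Kcnd2. Kcnt1 has a phenylalanine codon in the fourth place, and the stretch found in Kcnk1 a leucine codon there.
Kcnf1: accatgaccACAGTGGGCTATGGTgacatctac
Kcnj6: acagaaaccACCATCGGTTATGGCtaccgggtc
Kcnma1: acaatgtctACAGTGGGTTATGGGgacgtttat
Kcnt1: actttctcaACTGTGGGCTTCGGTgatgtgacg
Kcnd3: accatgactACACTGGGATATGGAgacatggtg
Kcnd2: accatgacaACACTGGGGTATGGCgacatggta
Kcnk1: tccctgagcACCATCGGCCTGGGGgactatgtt

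A promoter was listed by RefSeq (GRCm38.p6) for 53 of the 76 genes. The promoters of the genes called at 8 months in mDA neurons are printed because PRC2 in mammals is known to gather at CpG-rich promoters. Each line gives the 250 bases before a listed start, 5′ to 3′ on the gene's strand, with every CG pair in capitals. The motif was CG alone, which reads the same on both strands. Kcnf1 (minus strand, chr12:17176889-17177138) had 1 pair, and 92.1% of all 32851 listed promoters had at least as many. Kcnj6 (minus strand, chr16:94997697-94997946) had 26 pairs at its outer start, a number that 9.59% of promoters reached, and 7 at an inner start. Kcnn3 (plus strand, chr3:89519914-89520163) had 10 pairs, reached by 37.8%. The median over all promoters was 6 pairs. In the first 250 transcribed bases the matched transcript of Kcnf1 had 11 pairs and that of Kcnn3 had 6, against a median of 15 over the 76 genes when each gene's richest transcript is taken. These counts describe letters and show no PRC2 binding.
Kcnf1: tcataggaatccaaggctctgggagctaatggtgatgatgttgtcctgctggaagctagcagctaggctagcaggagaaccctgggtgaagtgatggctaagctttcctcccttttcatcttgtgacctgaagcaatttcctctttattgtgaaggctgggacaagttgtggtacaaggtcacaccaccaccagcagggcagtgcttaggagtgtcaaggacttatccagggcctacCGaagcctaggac
Kcnj6: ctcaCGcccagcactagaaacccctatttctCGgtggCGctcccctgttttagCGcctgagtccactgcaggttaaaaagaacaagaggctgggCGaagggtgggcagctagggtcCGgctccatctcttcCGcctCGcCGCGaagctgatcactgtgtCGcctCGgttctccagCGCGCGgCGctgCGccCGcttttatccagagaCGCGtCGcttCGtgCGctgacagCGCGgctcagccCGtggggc
Kcnn3: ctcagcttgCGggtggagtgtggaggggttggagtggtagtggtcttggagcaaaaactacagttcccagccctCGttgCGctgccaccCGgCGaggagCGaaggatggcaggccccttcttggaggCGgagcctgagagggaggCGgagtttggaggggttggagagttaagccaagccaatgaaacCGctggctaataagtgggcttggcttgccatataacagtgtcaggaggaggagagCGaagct

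The sorted neurons used a broad set of these genes, and a handful carried most of the signal. Summed over the 76 genes, the level was 2613 ± 288 CPM in mutant and 2384 ± 214.5 CPM in wt mDA neurons at 4 months, and 2646 ± 212 and 2575 ± 148 CPM at 8 months (SD). In 5HT neurons it was 2038 ± 180 CPM in mutants and 1844 ± 155 CPM in wt at 4 months, and 2144 ± 146 and 1827 ± 103 CPM at 8 months. A mean above 10 CPM in at least 1 group was reached by 40 genes, and 5 genes were too low for any test (Kcnj1, Kcnk15, Kcnk16, Kcnk7 and Kcnn4). Fold changes need no correction for gene length, but levels of different genes do, so these were divided by the exonic length of the transcripts (CPM per kb). On that scale Kcnn3, which encodes the calcium-activated SK3 channel, was the highest of the 76 in wt mDA neurons at 8 months with 81.5 ± 13.4 CPM per kb (n = 8). Behind it stood Kcnt1 (a sodium-activated Slack channel) at 48.8 ± 9.34, Kcnd3 (Kv4.3, the A-type channel) at 45.8 ± 10.5 and Kcnc2 (Kv3.2, for fast repolarisation) at 40.4 ± 7.73. The levels per kb of these 3 lay within about 1 SD of each other, so their order is not firm, while Kcnn3 stood further above them. The rank of Kcnn3 rests on the exonic length used, 2884 bases against 7226 for Kcnd3. In undivided CPM Kcnd3 was higher in this group, at a mean of 331 against 235 for Kcnn3. In wt 5HT neurons at 8 months Kcnn3 also came first, at 43.8 ± 7.68 CPM per kb, and Kcnt1 next at 36.1 ± 3.69 (n = 4).

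By class, voltage-gated genes held the largest share of the summed CPM per kb in every group. Their share was 52.3 ± 2.76% in mutant and 48.3 ± 3.31% in wt mDA neurons at 8 months. Calcium- or sodium-activated genes came next, with 27.6 ± 3.17% in mutants and 33.0 ± 3.46% in wt at that age. The silent class was the smallest, 2.27 ± 0.420% in mutant and 1.36 ± 0.474% in wt mDA neurons at 8 months. These shares are means over libraries (n = 8 each), were not tested, and can follow a single gene. In the edgeR comparison of mDA mutants with wt at 8 months (below), 3 of 8 tested silent genes had a positive estimate. Their median log2 fold change was -0.19, with Kcnf1 the highest at 2.27. For calcium- or sodium-activated genes it was 3 of 7, with a median of -0.01. The different shares are thus not shown to be shifts of whole classes.

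**Figure D1:**
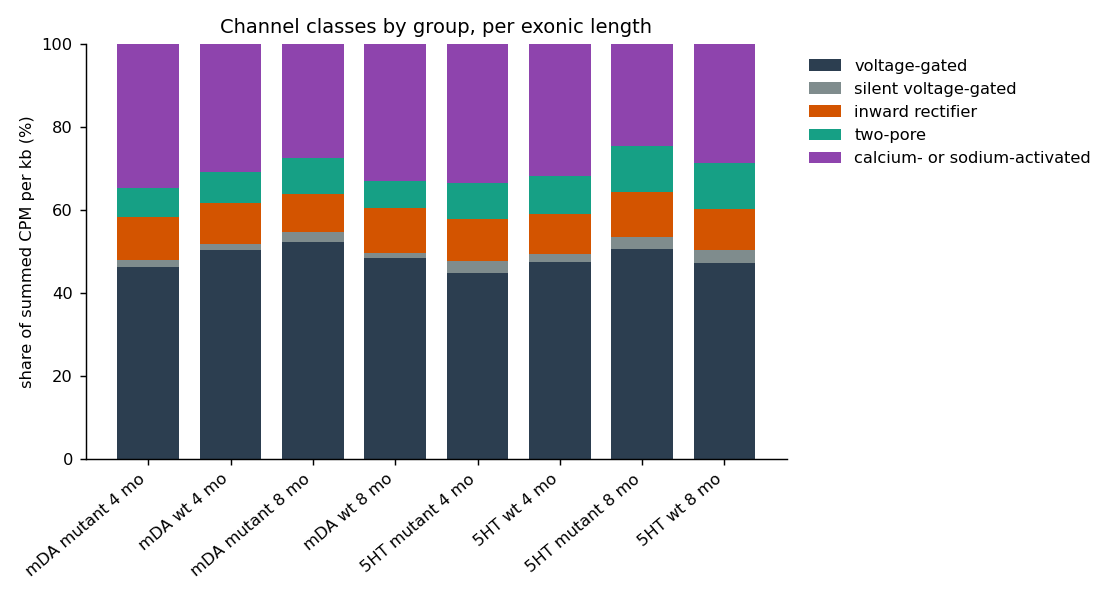
Share of the summed CPM per kb of exon (y axis, percent) held by each class of channel gene in the 8 groups (x axis, mean of libraries, stacked bars). Voltage-gated genes held between 44.7% and 52.3% in every group, and silent genes the least.

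Channel genes separated the wt neuron types. Between wt mDA and wt 5HT neurons, 23 of 69 tested channel genes passed (33.3%; edgeR quasi-likelihood test, Benjamini-Hochberg adjusted p under 0.05 over all genes), against 21.7% of all 16178 genes tested, with 13 higher in mDA and 10 lower. The 13 include Kcng3, Kcng1 and Kcnv1, which entered the test through mDA libraries (below). The median log2 fold change was 0.11 over the tested channel genes and 0.03 over all genes. Kcnd3 differed with the smallest p. Its level in single libraries ran from 228 to 386 CPM in wt mDA at 4 months (median 286) and from 260 to 479 at 8 months (median 305). In wt 5HT it was 51.5, 52.2, 52.2 and 85.7 CPM at 4 months and 34.5, 47.6, 66.3 and 70.4 CPM at 8 months. Every mDA library thus lay above every 5HT library, and the log2 fold change was 2.50 (SE 0.15, adjusted p = 2.86e-15). Its relative Kcnd2 (Kv4.2) went the other way. It had 10.5 to 31.6 CPM in wt mDA at 4 months and 11.6 to 37.9 CPM at 8 months, against 47.5, 56.2, 75.5 and 80.4 CPM in wt 5HT at 4 months and 35.1, 47.8, 50.1 and 60.4 CPM at 8 months. The types met only at the highest mDA library and the lowest 5HT library (log2 fold change -1.57, SE 0.20, adjusted p = 2.35e-07). Per kb at 8 months the pair stood at 45.8 ± 10.5 (Kcnd3) and 3.68 ± 1.56 CPM per kb (Kcnd2) in wt mDA. In wt 5HT it stood at 7.56 ± 2.31 and 9.39 ± 2.02 CPM per kb. By edgeR other cell markers differed between the wt types too. Lower in mDA were 4 of 10 oligodendrocyte, 3 of 10 endothelial and mural and 1 of 8 microglia markers, with 0 higher. Of 10 astrocyte markers 2 were lower and 1 higher, and of 5 GABA neuron markers 2 were lower and 3 higher. The part of other cells in the channel differences was not tested.

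Among the other voltage-gated genes, Kcnh1 (the ether-à-go-go channel) was higher in wt mDA, with a log2 fold change of 2.18 (SE 0.41, adjusted p = 0.000125), as was Kcnc2 with 0.82 (SE 0.14, adjusted p = 2.64e-05). The Kv1.2 gene Kcna2 (0.47) and Kcnh6 (0.89) were also higher. Lower in mDA were Kcnh7 (-1.14, SE 0.29, adjusted p = 0.00385), Kcnc1 (Kv3.1; -0.55, adjusted p = 0.0327) and Kcna5 (-1.65). Of the silent genes, Kcng3, Kcng1 and Kcnv1 were higher in mDA and Kcnf1 lower (-1.17, SE 0.42, adjusted p = 0.0408). Kcng3, Kcng1 and Kcnv1 passed the count filter in the mDA fit but not in the 5HT fit. They were thus in this test through mDA libraries, and a higher level in mDA was built into their selection. Kcng3 had 121 counts over 17 wt mDA libraries and 1 count over 8 wt 5HT libraries, a ratio of 60.1 with a 95% counting interval of 10.6 to 2393.

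Two-pore genes, which carry the background leak, divided as well. Kcnk2 (TREK-1) was higher in wt mDA (log2 fold change 2.39, SE 0.34, adjusted p = 1.46e-06), with means of 21.8 ± 4.88 CPM in wt mDA and 3.72 ± 3.40 CPM in wt 5HT at 4 months. Kcnk3 (TASK-1; -1.19, SE 0.28, adjusted p = 0.00154) and Kcnk4 (TRAAK; -1.89, SE 0.47, adjusted p = 0.00325) were lower in mDA. Kcnk9 (TASK-3) had 1.83 ± 1.72 CPM in wt mDA and 5.70 ± 2.46 CPM in wt 5HT at 8 months and did not pass (-0.87, adjusted p = 0.372). The large-conductance BK channel gene Kcnma1 (1.03, SE 0.17, adjusted p = 1.61e-05) and Kcnn3 (0.61, SE 0.13, adjusted p = 0.000590) were higher in mDA. The SK2 gene Kcnn2 differed by -0.24 (adjusted p = 0.469) and the KATP pore gene Kcnj11 by -0.07 (adjusted p = 0.900). With 1 age alone fewer channel genes passed, 10 at 4 months and 13 at 8 months. Those that passed at each age alone were Kcnd3, Kcnd2, Kcnj6, Kcnk2, Kcnma1 and Kcnc2. Kcnh1, Kcnh6, Kcnh7 and Kcnk3 passed at 4 months but not at 8 months, and Kcnn3, Kcnj9, Kcnj3, Kcna2, Kcnk4, Kcnv1 and Kcnf1 at 8 months but not at 4 months. Kcng3 was left out by the count filter at each age alone. The others passed at neither age, and whether the ages differ was not tested. Kcnf1 had 2.85 to 18.4 CPM in wt mDA at 4 months, against 0.622, 2.29, 13.6 and 20.7 CPM in wt 5HT, so the types overlapped fully at that age.

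**Figure D2:**
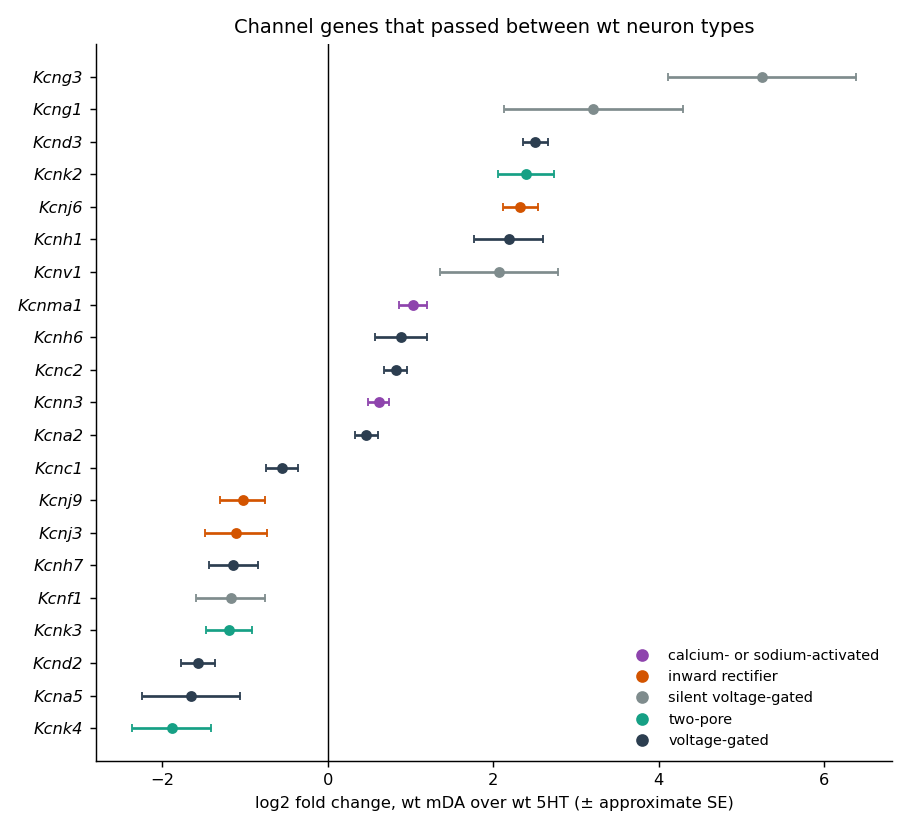
Log2 fold change of wt mDA over wt 5HT neurons (x axis, points with approximate SE) for 21 of the 23 channel genes that passed, coloured by class (y axis, ordered by fold change). Kcnd3 at 2.50 stands opposite Kcnd2 at -1.57, and Kcng3 at 5.25 rests on 1 count in wt 5HT.

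The GIRK genes had a different order in each type. Kcnj6 (GIRK2) had 82.3 to 181 CPM in wt mDA at 4 months and 109 to 225 CPM at 8 months, against 17.6, 30.8, 34.0 and 41.8 CPM in wt 5HT at 4 months and 8.93, 32.04, 33.4 and 40.02 CPM at 8 months. No mDA library reached down to a 5HT one (log2 fold change 2.32, SE 0.21, adjusted p = 8.34e-11). Kcnj9 (GIRK3; -1.03, SE 0.27, adjusted p = 0.00487) and Kcnj3 (GIRK1; -1.11, SE 0.38, adjusted p = 0.0315) were lower in mDA. Per kb at 8 months, wt mDA neurons had 26.7 ± 5.42 of Kcnj6, 4.32 ± 2.04 of Kcnj9 and 0.616 ± 0.273 of Kcnj3 (n = 8). At the same age wt 5HT neurons had 4.44 ± 2.11 CPM per kb of Kcnj6, 10.6 ± 2.02 of Kcnj9 and 2.23 ± 0.711 of Kcnj3 (n = 4). At 4 months Kcnj9 and Kcnj6 overlapped in wt 5HT, with 7.77 ± 5.40 and 4.82 ± 1.57 CPM per kb. Kcnj5 (GIRK4) stayed under 2 CPM per kb in the mean of each group. It did not pass between the types (-0.21, adjusted p = 0.864).

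**Figure D3:**
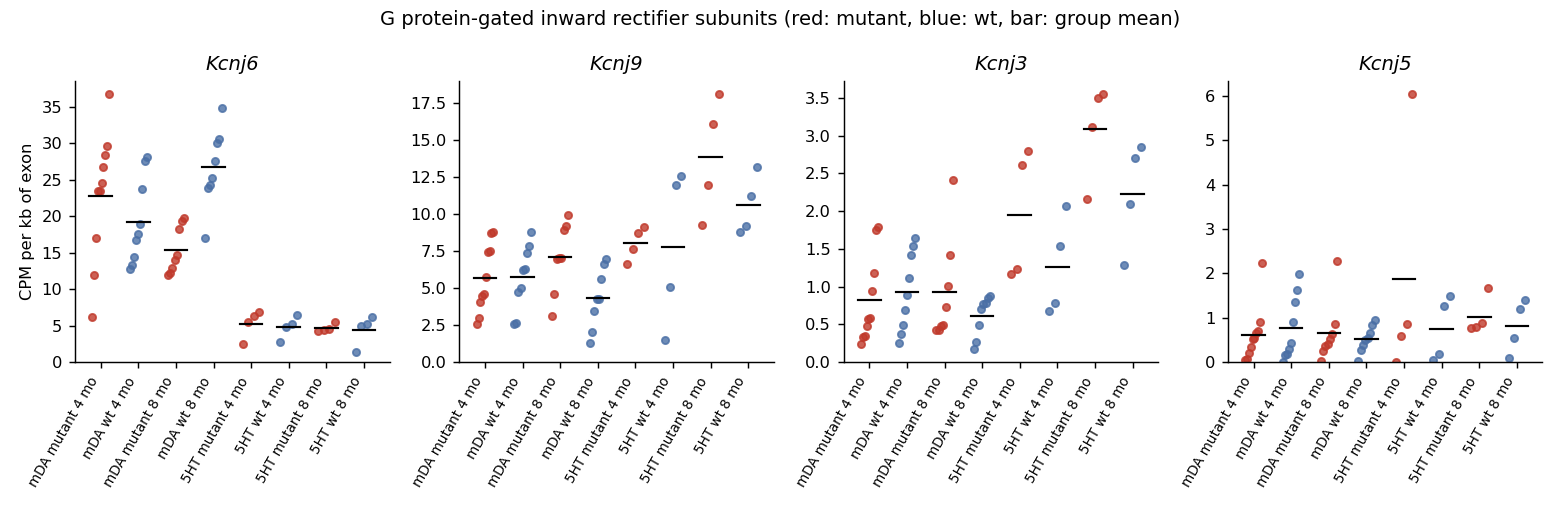
Level per kb of exon (y axis, CPM per kb, linear from 0, own scale for each gene) of the 4 GIRK genes in every library of the 8 groups (x axis), with group means as bars. Kcnj6 is the highest of them in mDA and Kcnj9 the highest in 5HT wt neurons at 8 months, and Kcnj6 in mDA at 8 months is 15.4 CPM per kb in mutants and 26.7 in wt.

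In mDA neurons at 8 months, mutants had more Kcnf1 and less Kcnj6 and Kcnn3 than wt. These were 3 of 64 tested channel genes (4.69%), against 4.32% of all 15425 genes tested, so the share called was near that of all genes. Kcnf1 encodes Kv5.1, a silent subunit (chromosome 12, 17172100 to 17176888). Its level ran from 17.4 to 40.5 CPM in the 8 mutants, with a median of 24.1, against 1.45 to 12.9 CPM in the 8 wt libraries, with a median of 3.93. Each mutant library was above each wt library, and it was the only one of the 76 genes without overlap in mDA neurons at either age. At 8 months that was 1 of 64 tested channel genes (1.56%), against 1.32% of all genes tested. The log2 fold change was 2.27 (SE 0.52, adjusted p = 0.00537). The printed filter and the CG-poor upstream window above are those of this gene.

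Kcnj6 (chromosome 16, 94744980 to 94997696) had 77.1 to 127 CPM in mutants (median 92.6) and 109 to 225 CPM in wt (median 170). All 8 mutants lay below the wt median and 5 of them below every wt library (log2 fold change -0.83, SE 0.20, adjusted p = 0.00674). The other GIRK genes did not pass: Kcnj9 averaged 27.4 ± 8.997 CPM in mutants and 16.7 ± 7.88 CPM in wt (0.76, adjusted p = 0.168), and Kcnj3 4.83 ± 3.63 and 3.22 ± 1.42 CPM (0.61, adjusted p = 0.635). Kcnn3 (chromosome 3, 89520164 to 89672494) had 137 to 218 CPM in mutants (median 169) and 178 to 289 CPM in wt (median 232), with 6 of 8 mutants below every wt library (log2 fold change -0.54, SE 0.15, adjusted p = 0.0230). The pacemaking gene Kcnd3 was at 298 ± 45.04 CPM in mutants and 331 ± 76.0 CPM in wt (-0.02, SE 0.13, adjusted p = 0.964). Kcnn2 differed by 0.02 (adjusted p = 0.986), Kcnj11 by -0.42 (adjusted p = 0.598) and Kcnk3 by 0.76 (adjusted p = 0.296). By class, 7 of 9 tested two-pore genes had a positive estimate with a median of 0.56. Over all genes 51.5% were positive and the median was 0.02. With edgeR none of the 9 passed, and 2 were called in other fits: Kcnk13 (THIK-1) with DESeq2 (1.72, adjusted p = 0.0482; edgeR 1.69) and Kcnk1 without the set term (0.59, adjusted p = 0.04998). Both were named after their values were seen.

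**Figure D4:**
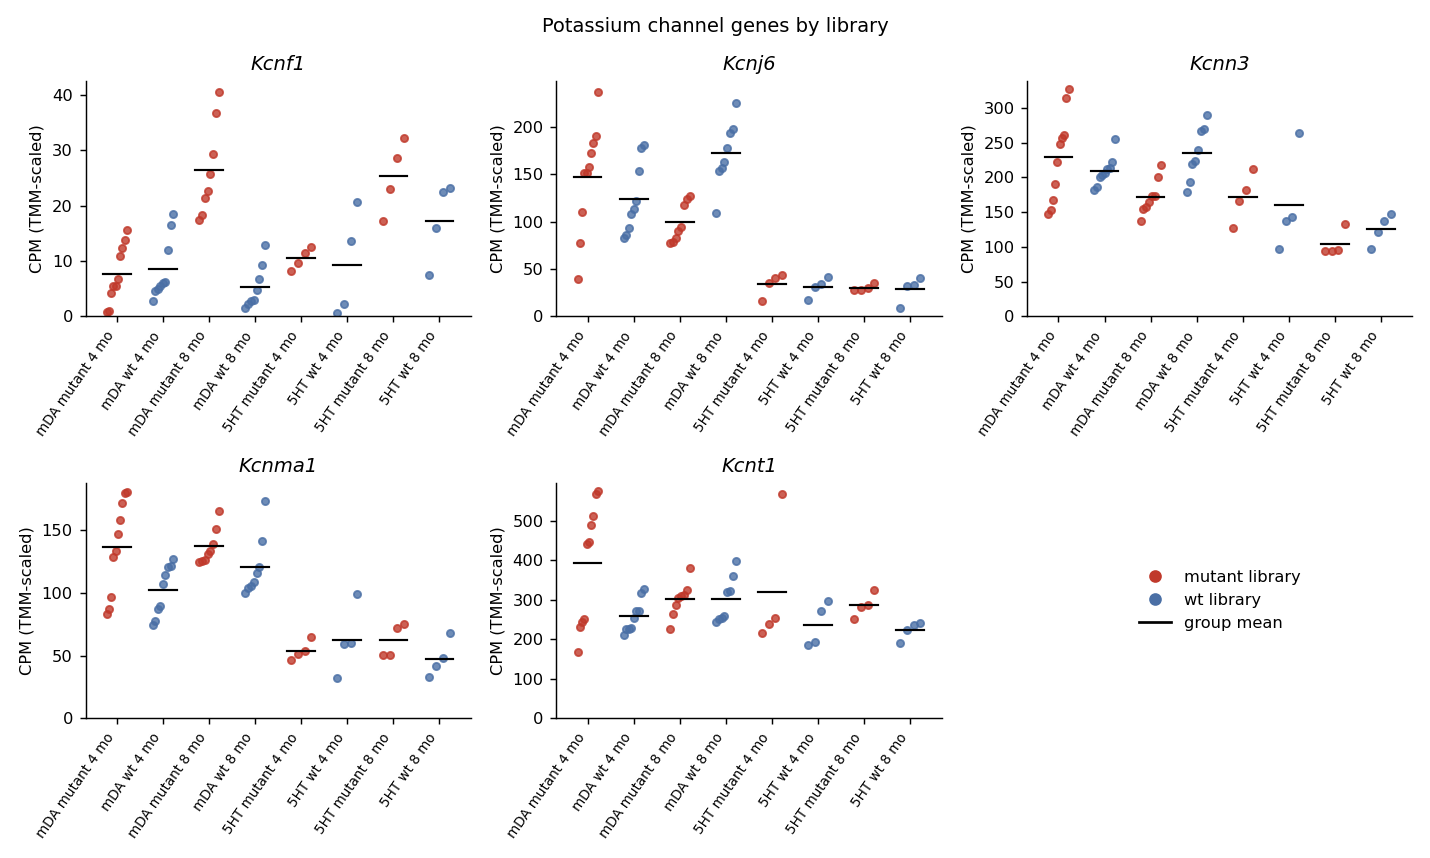
CPM (y axis, linear from 0) of Kcnf1, Kcnj6, Kcnn3, Kcnma1 and Kcnt1 in each library of the 8 groups (x axis), with group means as bars. At 8 months in mDA all 8 mutants lie above the 8 wt libraries for Kcnf1, while for Kcnj6 5 and for Kcnn3 6 mutants lie below all of them.

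Within sequencing sets the directions were kept, but of the calls only that of Kcnf1 in set2 remained. Kcnf1 differed by 1.78 in set1 (adjusted p = 0.0516) and by 3.29 in set2 (adjusted p = 0.0369). Kcnj6 differed by -0.53 (adjusted p = 0.105) and -1.09 (adjusted p = 0.0918), and Kcnn3 by -0.55 (adjusted p = 0.0984) and -0.53 (adjusted p = 0.336) in set1 and set2. Kcnn3 also missed the threshold when wt animal C51 (adjusted p = 0.0611), wt animal D147 (0.0585) or mutant animal D282 (0.0646) was left out, and in the fit without the term for sex (-0.48, adjusted p = 0.0720). Other cell markers moved in the same comparison. Of 8 dopaminergic markers 6 were lower in mutants, with summed levels of 3026 to 4043 CPM in mutants and 5265 to 9501 CPM in wt. Of 5 GABA neuron markers 4 were higher, with sums of 669 to 966 CPM in mutants and 247.96 to 491 CPM in wt. All 10 astrocyte markers had positive estimates and 1 passed, with sums of 424.6 to 1552 CPM in mutants and 337 to 628 CPM in wt. Of 8 serotonergic markers 2 were higher, with sums of 47.3 to 104 CPM in mutants and 13.3 to 66.3 CPM in wt. Of 10 oligodendrocyte markers 1 was higher and 9 had positive estimates, with sums of 471 to 1399 CPM in mutants and 506 to 987 CPM in wt. For 10 endothelial and mural markers 1 passed, and the sums were 8.70 to 864 CPM in mutants and 8.07 to 53.9 CPM in wt. None of these markers was at 0 in either group. The 3 mutants with the highest endothelial and mural sums, D161, D170 and D176, were all of set2. Without them Kcnf1 was still called (2.19, adjusted p = 0.0177), whereas Kcnj6 (-0.73, adjusted p = 0.0516) and Kcnn3 (-0.56, adjusted p = 0.0518) just missed. The part of other cells in these results was not tested, and fewer cells of a type and less RNA per cell cannot be told apart in bulk libraries. An exon of Kcnj6 is overlapped on the opposite strand by Gm41505.

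In mDA neurons at 4 months, Kcnma1 alone passed. That was 1 of 64 tested channel genes (1.56%), against 1.17% of all 15425 genes. Kcnma1 (chromosome 14, 23292288 to 24005110) had 83.3 to 181 CPM in the 10 mutants (median 140) and 74.5 to 127 CPM in the 9 wt libraries (median 108). Of the mutants 7 were above every wt library and the other 3 lay within the wt range (log2 fold change 0.38, SE 0.10, adjusted p = 0.0460). Mutant estimates were positive in each set, at 0.63 in set1 (adjusted p = 0.0215), 0.30 in set2 (0.799) and 0.35 in set3 (0.363). In set1 and set3 genotype and sex cannot be told apart, with the sexes reversed between them. The call was lost without the 4 set1 mutants (0.35, adjusted p = 0.460). It was also lost in 13 of 19 fits that left out 1 animal, with adjusted p up to 0.116. It held only without wt C248 or D878, or without mutant C213, C214, D226 or D192. At 8 months Kcnma1 did not pass, but its estimate was positive as well (0.27, adjusted p = 0.241, edgeR with RLE scaling). All 8 mutants of that age lay above the wt median and 0 above every wt library. A change confined to 4 months is thus not shown.

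At this age 1 of 10 oligodendrocyte markers was lower in mutants, with sums of 472 to 1229 CPM in mutants and 433 to 1557 CPM in wt, while 1 of 5 GABA neuron and 1 of 8 serotonergic markers were higher. Their part was not tested. An exon of Kcnma1 is overlapped on the opposite strand by 4930519K11Rik. Kcnt1 was next at 4 months. It had 168 to 577 CPM in mutants (median 445) and 211 to 327 CPM in wt (median 255), with 6 mutants above and 1 below every wt library. Its log2 fold change of 0.44 (SE 0.12) missed the threshold (adjusted p = 0.0581), and it was 0.99 in set1, 0.49 in set2 and -0.23 in set3, where the same holds. With RLE scaling (adjusted p = 0.0404) or DESeq2 (adjusted p = 0.0114) it passed. The genes that moved at 8 months did not pass at 4. Kcnf1 averaged 7.64 ± 5.25 CPM in mutants and 8.58 ± 5.65 CPM in wt (-0.18, adjusted p = 0.888), Kcnj6 146.9 ± 57.5 and 124 ± 38.0 CPM (0.20, adjusted p = 0.638) and Kcnn3 229 ± 64.0 and 209 ± 21.5 CPM (0.10, adjusted p = 0.769). Kcnd3 differed by -0.02 (adjusted p = 0.961) and Kcna2 by 0.28 (adjusted p = 0.307).

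**Figure D5:**
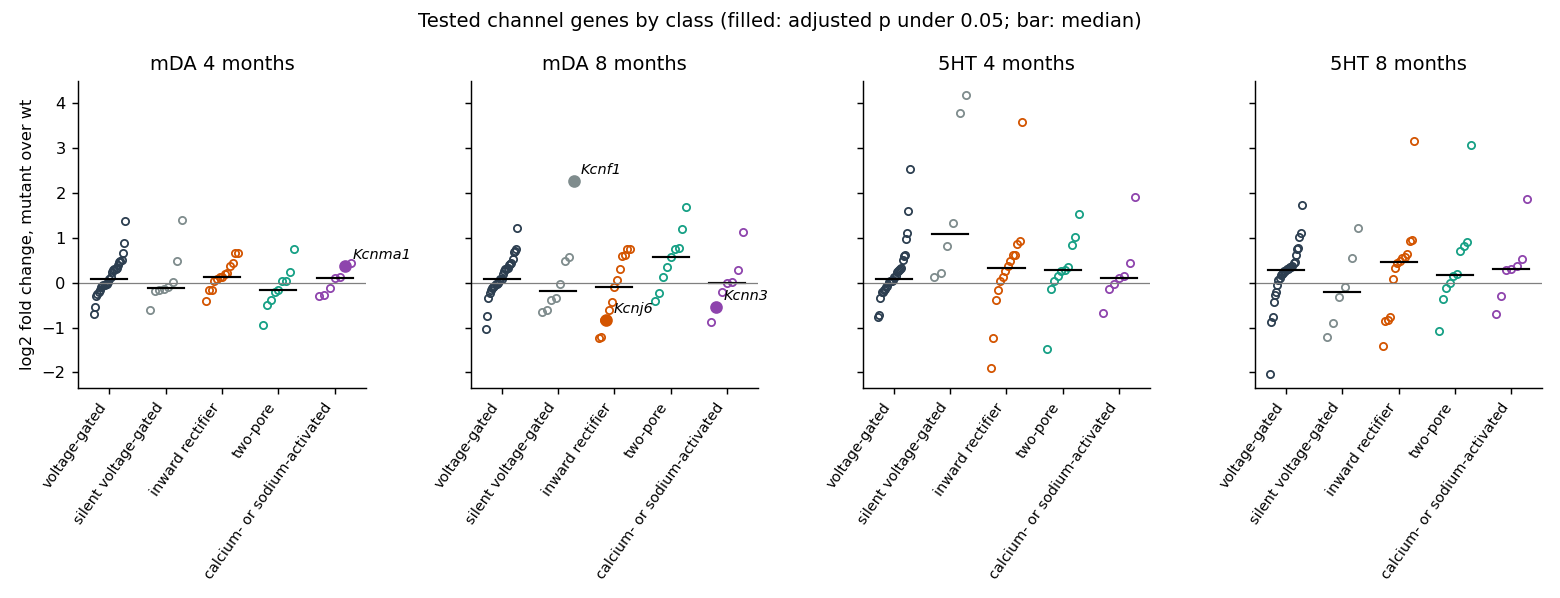
Log2 fold change of mutant over wt (y axis) for each tested channel gene, by class (x axis), in the 4 comparisons of mutants with wt. Filled points passed and bars are class medians: Kcnma1 at 0.38 in mDA at 4 months, and Kcnf1 at 2.27, Kcnj6 at -0.83 and Kcnn3 at -0.54 in mDA at 8 months.

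The mutant effect itself differed between the ages for 4 of 64 channel genes (6.25%), against 6.11% of all genes. Taken as the effect at 8 months minus that at 4 months, it was 2.46 for Kcnf1 (SE 0.63, adjusted p = 0.0146), -1.04 for Kcnj6 (SE 0.25, adjusted p = 0.0104), -0.65 for Kcnt1 (SE 0.19, adjusted p = 0.0295) and -0.64 for Kcnn3 (SE 0.19, adjusted p = 0.0316). Without the term for sex Kcnj6 alone remained, with Kcnf1 at an adjusted p of 0.0523. Within mDA mutants, in a fit where set1, set2 and set3 mean the same at both ages, 4 of 64 channel genes differed between 8 and 4 months (6.25%), against 7.37% of all genes. Kcnf1 (1.62, SE 0.39, adjusted p = 0.00592), Kcnk1 (TWIK-1; 0.62, SE 0.17, adjusted p = 0.0196) and Kcnc4 (Kv3.4; 0.73, SE 0.23, adjusted p = 0.0380) were higher at 8 months and Kcnn3 lower (-0.45, SE 0.13, adjusted p = 0.0264). Kcnk1 averaged 58.6 ± 7.65 CPM in mutants at 8 months and 35.7 ± 11.6 CPM in mutants at 4 months. Kcnc4 averaged 41.6 ± 10.2 CPM at 8 months and 23.7 ± 6.23 CPM at 4 months, with its highest 8 month animal, D161, at 63.9 CPM and an adjusted p of 0.115 without that animal. Within wt mDA neurons 0 of 64 channel genes passed between 8 and 4 months, against 0% of all genes. In that comparison edgeR gave 2 channel genes an unadjusted p under 0.05, and DESeq2 also called 0 channel genes. The comparisons of mutants with wt and of the ages share libraries.

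No channel gene passed between mutant and wt 5HT neurons. At 4 months 0 of 65 tested channel genes were called, against 0.0128% of all 15633 genes; edgeR gave 4 of them an unadjusted p under 0.05 and DESeq2 called 0. At 8 months it was 0 of 65, against 0.397% of all genes, with 3 at an unadjusted p under 0.05 and 0 by DESeq2. Estimates were positive for 47 of 65 channel genes at 4 months (median 0.21) and for 44 at 8 months (median 0.30). Over all genes 50.5% were positive at 4 months and 50.7% at 8 months, with a median of 0.01 at both ages. A shift of the channel genes as a set was not tested. At 8 months 3 of 8 serotonergic markers were lower in mutants, with sums of 1118 to 1544 CPM in mutants and 5211 to 6925 CPM in wt. Of 6 tested dopaminergic markers 2 were lower as well, with sums over the list of 1511 to 1789 CPM in mutants and 3809 to 4167 CPM in wt. As said above, that list is not particular to mDA neurons. Of 5 GABA neuron markers 2 were higher. At 4 months no marker list held a called gene. The part of these shifts was not tested. The genes named in mDA neurons had wide errors here. Kcnf1 had 17.2, 23.0, 28.7 and 32.3 CPM in mutant 5HT at 8 months, against 7.49, 15.9, 22.4 and 23.2 CPM in wt 5HT, and the groups overlapped (0.54, SE 0.64, adjusted p = 1.0). Kcnj6 had 27.6, 28.2, 29.6 and 35.7 CPM in mutants and 8.93, 32.04, 33.4 and 40.02 CPM in wt (0.08, SE 0.40, adjusted p = 1.0). Kcnn3 had 93.7, 94.6, 95.4 and 132 CPM in mutants, against 97.2, 122, 138 and 148 CPM in wt (-0.29, SE 0.26, adjusted p = 1.0).

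A few 5HT genes separated the 4 mutants from the 4 wt libraries without passing the test across all genes. At 8 months Kcna1 (Kv1.1) had 55.5, 59.6, 60.4 and 80.5 CPM in mutants and 9.70, 33.8, 35.7 and 37.0 CPM in wt (1.11, SE 0.54). Kcnt1 also lay above wt in all 4 mutants and Kcnn2 below it. At 4 months Kcnd2 lay below wt in all 4 mutants, with 34.7, 35.5, 40.4 and 41.1 CPM in mutants and 47.5, 56.2, 75.5 and 80.4 CPM in wt (-0.76, SE 0.26, adjusted p = 0.620). Groups without overlap were seen for 4 of 65 channel genes at 8 months (6.15%), against 6.49% of all genes, and for 2 of 65 at 4 months (3.08%), against 2.76%, so these shares were near those of all genes. Kcnj13 (Kir7.1) had the smallest p of the channel genes at 8 months, with 1.22, 5.13, 9.21 and 9.66 CPM in mutants and 0.156, 0.173, 1.27 and 1.66 CPM in wt (3.16, SE 1.13, adjusted p = 0.517). Its exon overlaps Gigyf2 on the opposite strand, and no source here says whether counting used strand. The 5HT effect at 8 minus 4 months gave 0 of 65 channel genes, against 0.0128% of all genes (1 with an unadjusted p under 0.05, DESeq2 0). Between 8 and 4 months, mutant 5HT neurons gave 0 of 65, against 0.243% of all genes (1 unadjusted, DESeq2 0). Likewise wt 5HT neurons gave 0 of 65, against 0% of all genes (3 unadjusted, DESeq2 0).

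Whether the mutant effect at 8 months differs between mDA and 5HT neurons was tested in all 51 libraries. Of 71 tested channel genes 0 passed, against 0.179% of all 18386 genes (edgeR, 4 with an unadjusted p under 0.05), while DESeq2 called Kcnj13 alone. The mDA minus 5HT difference was 1.71 for Kcnf1 (SE 0.82, adjusted p = 0.630), -0.88 for Kcnj6 (SE 0.39, adjusted p = 0.588) and -0.22 for Kcnn3 (SE 0.28, adjusted p = 0.898). No channel gene is therefore shown to respond in mDA neurons alone.

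The partners of these channels were read from 2 lists. Between wt mDA and wt 5HT neurons, 4 of 21 tested auxiliary subunit genes were higher in mDA (Kcnip4, Kcnip3, Dpp6 and Lrrc55) and Kcnab1 was lower, in all 23.8% against the 21.7% of all genes. Of 10 receptors known to open GIRK channels 5 were higher in mDA (Drd2, Oprk1, Gabbr1, Gabbr2 and Adora1) and 2 lower (Htr1a and Htr1b). That was 70%, against the same 21.7%. This list holds the autoreceptor genes Drd2 and Htr1a and was chosen with earlier results of these data known. Its shares, here and below, are therefore no measure of enrichment. Kcnip and Dpp proteins are known partners of the Kv4 channels. Of 17 tested auxiliary subunit genes, 0 passed in mDA at 4 months (edgeR gave 2 an unadjusted p under 0.05) and 1 at 8 months (5.88%, against 4.32% of all genes). That gene was Lrrc55, a BK channel gamma subunit, with 46.1 ± 9.84 CPM in mutants and 77.6 ± 17.4 CPM in wt (-0.76, SE 0.19, adjusted p = 0.0137). Of 9 tested receptors, 0 passed at 4 months (0 with an unadjusted p under 0.05) and 2 fell at 8 months (22.2%, against the same 4.32%). The kappa opioid receptor gene Oprk1 had 86.0 ± 23.5 CPM in mutants and 183 ± 39.0 CPM in wt (-1.13, SE 0.17, adjusted p = 1.51e-05), with every mutant below every wt library. The D2 autoreceptor gene Drd2 had 52.8 ± 7.44 CPM in mutants and 78.9 ± 20.5 CPM in wt (-0.61, SE 0.16, adjusted p = 0.0187). Kcnj6, the main GIRK gene of these neurons per kb, is among the genes that fell in the same libraries. In 5HT neurons 0 of 18 auxiliary genes passed at either age, and 0 had an unadjusted p under 0.05. Of 10 receptors 0 passed at 4 months (0 unadjusted) and 1 at 8 months (10%, against 0.397% of all genes). It was the 5-HT1A autoreceptor gene Htr1a, with 26.6 ± 9.14 CPM in mutants and 141 ± 10.4 CPM in wt (-2.40, SE 0.30, adjusted p = 0.000184). Htr1a is also on the serotonergic marker list, so its fall is already counted among the serotonergic markers above.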

How the data were processed

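The measure was the whole-number count of reads for each gene in 51 libraries, deposited by the authors as a single table. The submitters' processing notes name STAR 2.7.0a and the mm10 build. Which program counted the reads, and whether it read strand, is not given in those sources. Groups, ages, sets and sexes follow the labels. A reporter row (at most 0.00294% of counts) was left out, 0 sample columns were unused, and 0 columns were identical.

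Counts were tested with edgeR 4.0.16 in R 4.3.3 (TMM scaling, filterByExpr with a minimum count of 10, robust quasi-likelihood fit, Benjamini-Hochberg adjusted p under 0.05 over all genes). The 35 mDA libraries were fitted with set within age and sex, the 16 5HT and the 25 wt libraries with sex, and all 51 with both. SE values are the absolute fold change over the square root of F. CPM use TMM over all 51 libraries, and intervals cover counting error only. An exon of 20 of the 76 genes, Kcnj6, Kcnma1, Kcnd3, Kcnj9, Kcnj3, Kcnk1, Kcnk2, Kcnk3 and Kcnn2 among them, overlaps another gene on the opposite strand in GENCODE M21.

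The members, classes and lists were chosen with earlier results of these data known. Named were all members called between mutant and wt, up to 8 per side between wt types and 5 in other comparisons, and 14 followed throughout. Alternatives were RLE scaling, DESeq2 1.42.0, no filter, no sex or set term, single sets or ages, the compared groups alone, and each library left out. Scripts were tested on simulated data. Some members, and one sequence, are counted but not reported here.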

Additional observations from a re-analysis of the deposited data

Results flagged for a closer look

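The mutant effect in mDA neurons differed between 8 and 4 months for 4 channel genes, by the test of the difference given above: 2.46 for Kcnf1, -1.04 for Kcnj6, -0.65 for Kcnt1 and -0.64 for Kcnn3. Single libraries were checked against their group by a rule that assumes normally distributed values, which CPM need not be. The Kcng3 value below is 1 count in a group otherwise at 0. Single libraries stood apart in 9 of 108 group values checked, where the rule gives about 1 in 20 by chance. In mDA neurons at 8 months these were Kcnc4 in mutant D161 (63.9 CPM, the others 30.1 to 43.6), Kcnd2 in wt D107 (37.9, the others 11.6 to 19.5), Kcnk1 in wt C49 (61.0, the others 31.2 to 42.7) and Kcnk2 in wt D833 (8.53, the others 16.9 to 24.0). In 5HT neurons they were Kcnt1 in 4 month mutant S427 (567, the others 215 to 254), Kcnc4 in the same animal (29.0, the others 35.2 to 35.9), Kcnn3 in 8 month mutant S446 (132, the others 93.7 to 95.4), Kcnd3 in 4 month wt S369 (85.7, the others 51.5 to 52.2) and Kcng3 in the same animal (0.335, the others at 0).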

How the results depend on the processing

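Channel genes called at 4 months in mDA (1) became 2 under RLE scaling or DESeq2, 0 without the filter, without the set term, with the 2 groups alone, in set2, in set3 or without the set1 mutants, and 3 in set1. At 8 months in mDA (3) they became 2 without the sex term (Kcnn3 lost), 4 with DESeq2 (Kcnk13 added), 4 without the set term (Kcnk1 added), 0 in set1, 1 in set2 and, in an alternative chosen after seeing the data, 1 without the 3 mutants with high endothelial markers. The difference of mutant effects in mDA (4) gave 1 without the sex term and 2 without the set term. Between wt types (23) the count was 10 at 4 and 13 at 8 months. The mDA against 5HT difference (0) gave 1 with DESeq2. Leaving out single libraries gave 0 to 2 for mDA at 4 months, 2 to 4 at 8 months, 1 to 5 for the difference, 2 to 6 for 8 against 4 months in mDA mutants and 18 to 23 for the wt types. The other comparisons stayed at 0 under every alternative. No called gene that was followed through the alternatives changed direction. Between wt types only the 8 called genes with the smallest p on each side were followed in this way. Over all genes, RLE scaling turned 89 higher and 92 lower calls at 4 months in mDA into 96 and 56, and 580 and 362 in the difference into 481 and 449. In that difference Kcnf1 missed the threshold without wt animal D296 (2.07, adjusted p = 0.0536), Kcnt1 in 8 and Kcnn3 in 6 of 35 fits without 1 animal, and Kcnj6 in 0. In 8 against 4 month mutants Kcnc4 failed in 12 of 18, Kcnk1 without D187 or D192, and Kcnn3 without D282 or D237. Genes near 1 CPM rest on few counts per library, and the fold changes of Kcng3, Kcng1 and Kcnv1 carry that limit. No paired analysis was possible because animals have no shared replicate numbers.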
